A study of Rattus norvegicus with 10 samples.

Results

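Reg genes encode small secreted C-type lectins. In rat they comprise Reg1a, Reg3a, Reg3b, Reg3g and Reg4, and the report concerns their transcripts in jejunum after oral A-998679. The members were all probe sets (groups of short array probes read as 1 transcript) whose gene symbol in the array annotation is one of these 5, and they were chosen by their log2 intensity at 200 mg/kg, which was higher than in vehicle rats. There were 4 such probe sets among 29559. They name 4 of the 5 genes, out of 13813 genes named on the array, since no probe set carried the symbol of Reg4, which was not analysed here. Reg3b, Reg1a and Reg3g passed the filter on dim signal and Reg3a did not.

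A-998679 was made as a positive modulator of the α4β2 nicotinic acetylcholine receptor, and the study found that it also activates the aryl hydrocarbon receptor (AhR). Male Sprague Dawley rats were gavaged once a day for 5 days with the vehicle alone, 0.2% hydroxypropylmethylcellulose at 10 ml/kg/day (n = 3), or with the compound at 30 (n = 2), 100 (n = 3) or 200 mg/kg/day (n = 2). All rats fasted overnight after the last dose, and the RNA came from pieces of the whole jejunal wall, frozen at once and read on Affymetrix RAE230 arrays with 1 array per rat. Rat 3 of the 30 mg/kg group and rat 3 of the 200 mg/kg group were not analysed here. Values are log2 intensities, and with so few arrays per group their precision is low.

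Reg3 lectins are made by enterocytes and Paneth cells and secreted into the mucus layer, where RegIIIγ of the mouse binds peptidoglycan of Gram-positive bacteria and RegIIIβ acts on Gram-negative bacteria. Their genes are known targets of interleukin-22 and interleukin-6 through STAT3, and they rise in infected or injured gut. Reg1a encodes a growth factor of pancreatic islets and regenerating gut epithelium, which is abundant in pancreatic acinar cells. Reg3a is likewise an acinar and Paneth cell gene.

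Reg3b, Reg3a, Reg1a and Reg3g lie side by side on rat chromosome 4, in an interval that holds 5 annotated genes, the fifth being the pseudogene Reg3b-ps1. Reg4 lies on chromosome 2. The 250 bases before the annotated start of the 3 measured genes (RefSeq, GRCr8) are shown because these neighbours were the members with signal on every array. Capitals mark TTCNNNGAA, a palindrome read the same on both strands that STAT factors can bind, and TATAAA, the TATA box, searched on the strand of the gene. The sequences are those of chr4:112419526-112419775 (plus strand, Reg3b), chr4:112450216-112450465 (plus strand, Reg1a) and chr4:112484739-112484988 (minus strand, Reg3g).
Reg3b: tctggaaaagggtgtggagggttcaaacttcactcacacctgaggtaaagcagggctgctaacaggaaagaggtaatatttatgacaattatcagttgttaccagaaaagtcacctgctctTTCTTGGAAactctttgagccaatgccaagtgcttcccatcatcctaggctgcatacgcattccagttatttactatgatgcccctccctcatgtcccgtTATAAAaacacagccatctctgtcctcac
Reg1a: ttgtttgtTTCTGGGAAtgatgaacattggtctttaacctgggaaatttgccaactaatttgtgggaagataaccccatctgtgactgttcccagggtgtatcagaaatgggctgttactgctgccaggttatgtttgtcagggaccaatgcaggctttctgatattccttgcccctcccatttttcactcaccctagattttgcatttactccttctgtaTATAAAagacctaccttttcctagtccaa
Reg3g: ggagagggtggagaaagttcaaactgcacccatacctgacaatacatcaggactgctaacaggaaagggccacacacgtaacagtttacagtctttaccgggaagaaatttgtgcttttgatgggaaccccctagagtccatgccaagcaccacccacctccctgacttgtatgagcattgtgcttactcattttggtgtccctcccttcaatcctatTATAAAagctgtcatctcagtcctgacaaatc
TTCNNNGAA was present as TTCTTGGAA at -129 to -121 in Reg3b and as TTCTGGGAA at -242 to -234 in Reg1a, counted back from the start, and was not found in Reg3g, Reg3a or Reg4. TATAAA stood at -29 to -24 in Reg3b and Reg1a and at -32 to -27 in Reg3g. Of 33469 rat promoters of the same length, 7.67% held TTCNNNGAA, 8.06% held TATAAA and 0.774% held both. GCGTG, the core to which AhR binds, was on neither strand of these 250 bases in any of the 5 Reg promoters. Most promoters lacked it at this length, since 25.9% held it. Sequence further from the start was not searched, and of the 2 annotated starts of Reg3a only the first listed was used. The motifs do not overlap where they are marked. The Reg3b and Reg3g promoters were 63.5% identical (165 of 260 aligned positions), the highest of the 10 pairs among the 5 genes, and shared the run CTGCTAACAGGAAAG of 15 bases, found in 2 promoters in all. Such matches are descriptions of sequence and no binding was measured.

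The measured members were higher at 200 mg/kg than in any other rat, with Reg3g 15.6-fold, Reg1a 10.1-fold and Reg3b 2.64-fold above vehicle. Below that dose no member passed the test over all probe sets. The members were chosen for the 200 mg/kg difference, so their values at that dose are given as a description without a test.

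Reg3g (probe set 1370631_at), the lectin active against Gram-positive bacteria, had log2 intensities of 9.51, 8.35 and 8.33 in vehicle rats, 8.48 and 9.91 at 30 mg/kg, 10.46, 9.27 and 9.28 at 100 mg/kg and 12.51 and 12.87 at 200 mg/kg. Both 200 mg/kg rats lay apart from the others, by at least 2.05, while the remaining groups overlapped. Vehicle rat 1, 30 mg/kg rat 2 and 100 mg/kg rat 1 were each the highest of their group by over 1 log2 unit. The 200 mg/kg rats averaged 12.69 ± 0.26 (SD, n = 2) and the vehicle rats 8.73 ± 0.67 (SD, n = 3), a log2 fold change of 3.96, the second highest of 17692 probe sets ranked.

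Reg1a (1368629_at), the growth factor, had 6.09, 6.26 and 6.52 in vehicle rats, 6.35 and 6.36 at 30 mg/kg, 7.89, 6.66 and 7.18 at 100 mg/kg and 9.78 and 9.46 at 200 mg/kg. The vehicle and 30 mg/kg rats overlapped, the 100 mg/kg rats all lay above both, and the 200 mg/kg rats lay at least 1.57 above every other rat. Reg1a was the only measured member whose groups separated at 100 mg/kg. The 200 mg/kg rats averaged 9.62 ± 0.22 (SD, n = 2) and the vehicle rats 6.29 ± 0.22 (SD, n = 3), a log2 fold change of 3.33, which ranked 3 of 17692.

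Reg3b (1368238_at), the lectin active against Gram-negative bacteria, had 11.53, 11.09 and 11.07 in vehicle rats, 11.19 and 11.57 at 30 mg/kg, 11.82, 11.34 and 11.25 at 100 mg/kg and 12.42 and 12.84 at 200 mg/kg. The lower groups overlapped and the 200 mg/kg rats lay at least 0.60 above the rest. Over 2 rats at 200 mg/kg the mean was 12.63 ± 0.29 (SD), against 11.23 ± 0.26 (SD) over 3 vehicle rats, a log2 fold change of 1.40, which ranked 115. The brightest value of any probe set was 12.88 to 13.36 per array, so that Reg3b and Reg3g at 200 mg/kg were near the top of the scale, and whether the top of the scale limited their fold change was not tested.

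**Figure D1:**
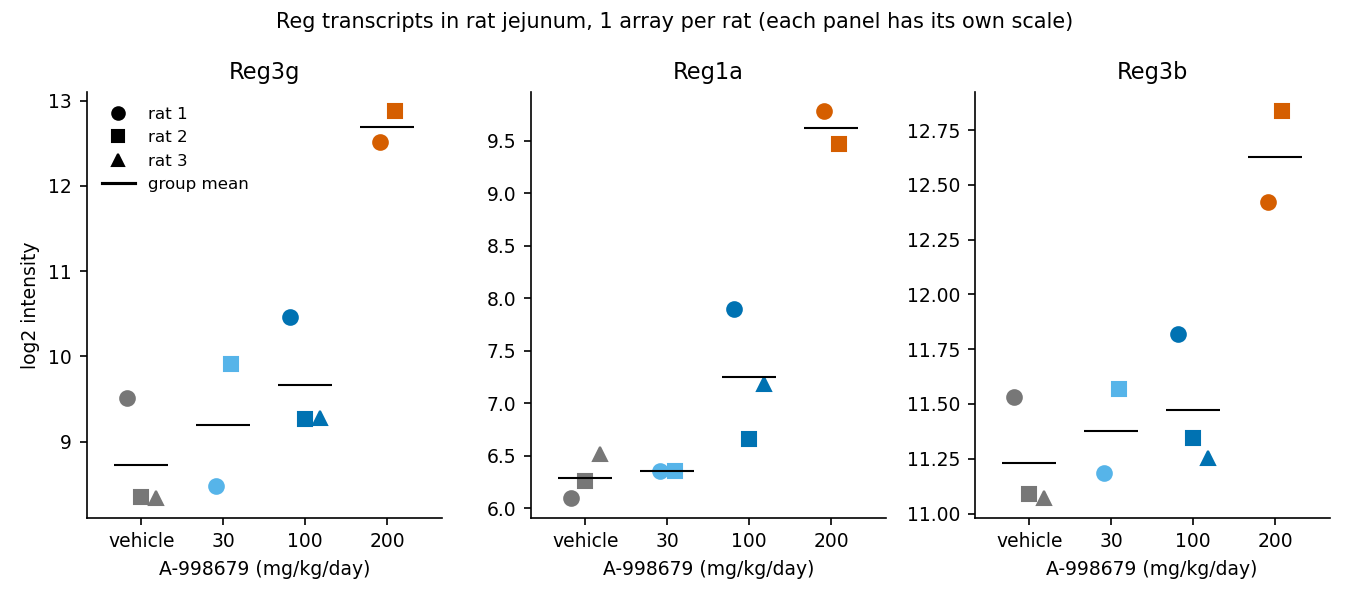
Log2 intensity of Reg3g, Reg1a and Reg3b (y axes, each with its own range) in vehicle rats and at 30, 100 and 200 mg/kg/day (x axes), 1 point per rat with its number as the symbol and the group mean as a line. The 200 mg/kg rats are above all other rats in each panel, and Reg1a alone has every 100 mg/kg rat (6.66 to 7.89) above every vehicle rat (6.09 to 6.52).

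Reg3a (1387930_at) was blank on every array except those of the 30 mg/kg rats, where it stood at -1.20 and 0.98, below the 10th percentile of all values (3.18). It gave no fold change at any dose, and this depth of signal does not show whether the transcript is absent.

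In limma, 0.0226% of probe sets passed between 200 mg/kg and vehicle, 0.0113% as higher. The 3 members with signal all had both 200 mg/kg rats above every vehicle rat, as did 12.4% of probe sets, and above all 8 other rats, as did 3.59% of probe sets (627 of 17465). Because the members were chosen in this contrast, these shares are given for scale only. Against 100 mg/kg, the 200 mg/kg mean was 8.13-fold higher for Reg3g, 5.19-fold for Reg1a and 2.23-fold for Reg3b. In whole tissue, more cells that make a transcript and more RNA per cell cannot be told apart, and probe sequences were not used here, so whether the Reg3b and Reg3g probe sets take up one another's transcripts was not tested.

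At 30 mg/kg against vehicle, which the choice of members did not use, none of the 3 tested members passed limma's test, while 0.0113% of probe sets did, with 4.66% at an unadjusted p of up to 0.05. The log2 fold changes were 0.46 (SE 0.54, adjusted p = 1) for Reg3g, 0.07 (SE 0.32, adjusted p = 1) for Reg1a and 0.15 (SE 0.24, adjusted p = 1) for Reg3b. All 3 members had overlapping rats here, whereas 7.39% of probe sets had every 30 mg/kg rat above every vehicle rat. The Reg3g and Reg3b values rested on 30 mg/kg rat 2, without which they became -0.25 and -0.043.

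At 100 mg/kg against vehicle, none of the 3 passed at an adjusted p of up to 0.05, and 0.0113% of all probe sets did (2 of 17702), 0.00565% as higher. Reg1a stood 0.96 log2 units above vehicle (SE 0.28, adjusted p = 0.196), a 1.94-fold higher mean, with all 3 treated rats above the 3 vehicle rats, as for 11.5% of probe sets. Its unadjusted limma p was 0.00865, and 18% of probe sets (3192) had an unadjusted p of up to 0.05. Reg3g had 0.94 (SE 0.48, adjusted p = 0.327) and Reg3b 0.24 (SE 0.22, adjusted p = 0.548), both with overlapping rats. Without 100 mg/kg rat 1, the highest of its group in each member, the values were 0.63 for Reg1a, 0.54 for Reg3g and 0.07 for Reg3b. With arrays weighted by their quality, Reg1a (0.96, adjusted p = 0.0127) and Reg3g (1.29, adjusted p = 0.0146) did pass, in a fit that called 6967 probe sets. The estimation of those weights did not converge.

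Between 100 and 30 mg/kg, where 0.56% of probe sets passed (99 of 17692), 0.305% as higher, no member did, and 19.2% of probe sets had an unadjusted p of up to 0.05. Reg1a was higher at 100 mg/kg by 0.89 (SE 0.32, adjusted p = 0.192), with its 3 rats above both 30 mg/kg rats, as for 24% of probe sets. Reg3g differed by 0.48 (SE 0.54, adjusted p = 0.652) and Reg3b by 0.09 (SE 0.24, adjusted p = 0.855). Without 30 mg/kg rat 1 the Reg3g difference was -0.24 and that of Reg3b -0.10, and without 100 mg/kg rat 1 that of Reg3b was -0.08.

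The members also differed in how they varied between rats of 1 dose. Across the 8 arrays other than those of 200 mg/kg, Reg3b and Reg3g followed each other with a Pearson r of 0.97 (Spearman rho 0.98), over all 10 arrays 0.99 (0.99). Reg1a had an r of 0.51 (rho 0.29) with Reg3b and 0.59 (rho 0.31) with Reg3g over those 8 arrays, and 0.90 and 0.93 over all 10. Vehicle rat 1 was the highest vehicle rat for Reg3b and Reg3g and the lowest for Reg1a. 30 mg/kg rat 2 exceeded rat 1 by 1.43 for Reg3g, while for Reg1a both stood at 6.35 and 6.36. These correlations are descriptions over arrays that share their groups, and carry no p.

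**Figure D2:**
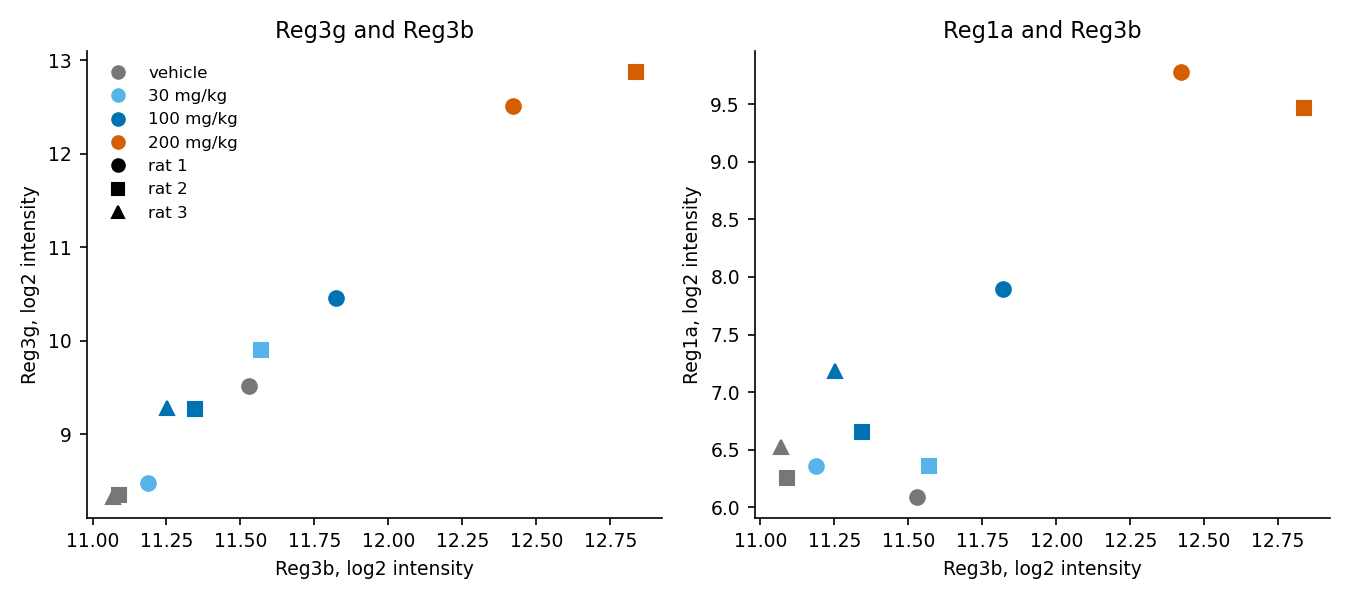
Log2 intensity of Reg3g (left) and Reg1a (right) against that of Reg3b, 1 point per rat, coloured by dose with the rat number as the symbol. Reg3g follows Reg3b along a line in rats of every dose (r = 0.97 without the 200 mg/kg rats), whereas Reg1a is flat across the vehicle and 30 mg/kg rats and is higher in the 100 and 200 mg/kg rats.

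No tested regulator or receptor of the Reg system was called at any dose. Of 25 genes listed, 21 had a probe set and 15 were tested. Il22, its receptor chain Il22ra1, Osm and Osmr had no probe set under their symbols, so they were not measured here. Il6, Il11, Lif, Lifr, Socs3 and Ifng were under the filter and not tested. At 200 mg/kg against vehicle, 8 had a higher and 7 a lower mean, the median log2 fold change was 0.05 against 0.01 over all probe sets, and none passed limma's adjusted threshold, with 1 higher and 2 lower at an unadjusted p of up to 0.05, a level that 12.4% of all probe sets (2195 of 17692) reached at this dose. At that unadjusted level 0 were higher and 1 lower at 30 mg/kg, and 3 higher and 2 lower at 100 mg/kg. Extl3 (1373234_at), which encodes a receptor reported for REG proteins, had 7.85 and 7.74 at 200 mg/kg against 8.30, 8.18 and 8.46 in vehicle, both treated rats below all vehicle rats (log2 fold change -0.52, SE 0.14, adjusted p = 0.229). It was as far down at 100 mg/kg (-0.49, SE 0.12, adjusted p = 0.157). Il11ra1, the interleukin-11 receptor chain, had 6.71 and 6.14 at 200 mg/kg against 7.06, 7.16 and 7.64 in vehicle (-0.86, SE 0.22, adjusted p = 0.228). Cebpd, a transcription factor induced with STAT3, had 6.50 and 6.05 at 200 mg/kg against 5.47, 5.47 and 6.05 in vehicle (0.61, SE 0.22, adjusted p = 0.318). These are the brightest probe sets, and dimmer ones of Extl3 and Cebpd are not described here.

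The pathway's central genes are added after their values were seen. Stat3 (1371781_at, its brightest probe set, with a dimmer one not described here) differed by 0.05 at 200 mg/kg and by 0.02 at 100 mg/kg, with overlapping rats. Socs3, the feedback inhibitor that STAT3 induces, was under the filter, with 5.19 and 4.27 at 200 mg/kg against 4.60, 4.50 and 0.95 in vehicle. Il6 was under the filter too, with 2.65 and 4.48 at 200 mg/kg against 2.89, 1.03 and 2.80 in vehicle. Il6st, the shared receptor chain gp130, had 4 probe sets, all with a negative log2 fold change at 200 mg/kg (-0.27, -0.42, -0.92 and -0.61), and none passed. Lif, an interleukin-6 family cytokine under the filter, had 4.69 and 4.77 at 200 mg/kg against 3.24, 2.35 and 4.64 in vehicle. Jak2 had 6.44 and 6.55 against 6.47, 5.62 and 5.60, with overlapping rats (0.60, SE 0.27, adjusted p = 0.412). Of 19 regulators with values on all 5 arrays, only Lif had both 200 mg/kg rats above every vehicle rat. For scale, 12.4% of all probe sets had both above. In 3 regulators both were below, a direction for which no share over all probe sets was computed.

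Genes that gut epithelium raises in alarm or uses against microbes were counted in the same way. Of 32 listed, 26 had a probe set and 14 were tested. None was called at any dose. At 200 mg/kg 11 had a higher and 3 a lower mean than in vehicle, with a median log2 fold change of 0.39 against 0.01 over all probe sets, and 6 had an unadjusted limma p of up to 0.05, all higher, beside the 12.4% of all probe sets in either direction. At 30 and 100 mg/kg the medians were -0.02 and 0.10, with 0 and 2 genes higher and 0 and 1 lower at that unadjusted level. The summed intensity of the 26 genes was 10184 to 10819 in vehicle rats, 8249 to 10148 at 30 mg/kg, 8960 to 9957 at 100 mg/kg and 12563 to 17208 at 200 mg/kg. Such a linear sum mostly follows the brightest genes, here Dmbt1 and Gpx2 (both given below), Pla2g2a and Pigr, and not the whole list. Pla2g2a had 12.02 in 200 mg/kg rat 1 and 10.39 in rat 2, against 11.52, 11.27 and 11.37 in vehicle.

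Dmbt1, a secreted scavenger protein that binds bacteria, had 11.97 and 11.62 at 200 mg/kg against 10.15, 10.37 and 10.72 in vehicle (log2 fold change 1.38, SE 0.32, adjusted p = 0.202). At 30 mg/kg it had 10.46 and 9.44 and at 100 mg/kg 10.72, 10.11 and 10.55. The 200 mg/kg rats alone were apart, above all 8 other rats, as in 3.59% of all probe sets. Gpx2, the epithelial glutathione peroxidase, had 12.06 and 11.43 at 200 mg/kg against 10.75, 10.72 and 10.80 in vehicle (0.99, SE 0.18, adjusted p = 0.162). At 100 mg/kg it stood below vehicle, with 9.84, 9.89 and 9.90 (-0.88, SE 0.16, adjusted p = 0.121). Fut2, which fucosylates the epithelial surface, had 9.16 and 8.93 at 200 mg/kg against 8.48, 7.996 and 7.996 in vehicle (0.89, SE 0.21, adjusted p = 0.200), and 8.61, 8.65 and 8.80 at 100 mg/kg. A second, dimmer Fut2 probe set differed by 1.71 at 200 mg/kg, with overlapping rats among the 10 arrays, and a further dimmer one is not described here. Fut2 passed in limma without vehicle rat 1 (1.05, adjusted p = 0.0423), in a fit that called 401 probe sets, against 4 with all rats. Without 200 mg/kg rat 2, which leaves 1 rat at that dose, the Gpx2 difference was 1.30.

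The other 3 of the 6 are named after their values were seen. Duox2, the oxidase of the epithelial surface, had 8.17 and 6.25 at 200 mg/kg against 5.98, 5.11 and 5.72 in vehicle, so that rat 1 carried most of the difference. Il18 had 8.50 and 8.47 at 200 mg/kg against 8.36, 7.56 and 7.19 in vehicle, and Ptgs2, the inducible cyclooxygenase, had 5.63 and 5.70 against 5.43, 4.87 and 5.25. The 6 were taken for their small p in this contrast, so their separation from vehicle is given as a description. All 6 had both 200 mg/kg rats above every vehicle rat, as did 12.4% of probe sets. Both were also above every 100 mg/kg rat, for which no share over all probe sets was computed. Several neutrophil and acute alarm genes were dim, among them Nos2, Lcn2, S100a8 and S100a9, all under the filter. Ccl20, Il1b and Nfkbia, also named after their values were seen, passed the filter. Their rats overlapped between 200 mg/kg and vehicle, with log2 fold changes of 0.67, 0.05 and 0.17. Nos2 was blank on all arrays, and Lcn2 was blank on both 200 mg/kg arrays and had values only in vehicle rats 1 and 2 (4.15 and 1.45). S100a8 had 0.20 and 3.68 at 200 mg/kg against 2.65, 0.45 and a blank in vehicle. S100a9 was blank in 200 mg/kg rat 1 and had 4.03 in rat 2, against 1.68, 3.12 and 2.09 in vehicle.

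**Figure D3:**
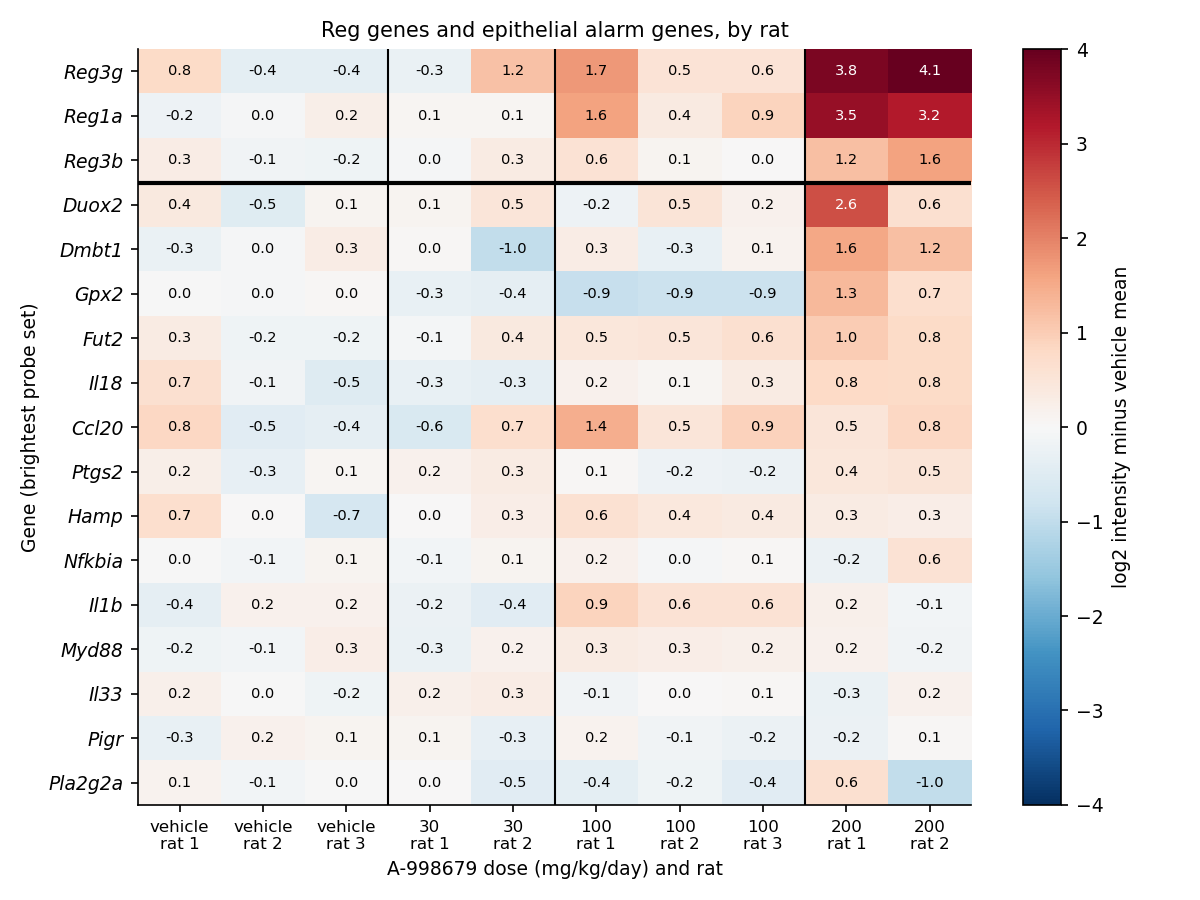
Difference in log2 intensity from the vehicle mean (colour and printed value) for the Reg genes (top 3 rows) and the 14 tested epithelial alarm and antimicrobial genes, each by its brightest probe set, in each rat (columns, by dose in mg/kg/day). Reg3g and Reg1a are 3.2 to 4.1 above vehicle in both 200 mg/kg rats, and Gpx2 is 0.9 below vehicle in each 100 mg/kg rat and above it in both 200 mg/kg rats.

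The cell types that can make Reg transcripts were followed through their markers. The jejunal wall was marked by its enterocyte genes, with Fabp2 at 12.27 to 12.87 and villin (Vil1) at 11.71 to 12.16 over the 10 arrays, and the 18 enterocyte genes summed to 57321 to 81711 in the 200 mg/kg rats, against 54072 to 66473 in vehicle rats. Pancreatic acinar markers were dim. Of 24 listed, 17 had a probe set and 2 passed the filter, and their summed intensity was 301 to 422 in vehicle rats, 288 to 378 at 30 mg/kg, 305 to 392 at 100 mg/kg and 363 to 438 at 200 mg/kg. Of the 16 with a value in both groups, 11 had a higher and 5 a lower mean at 200 mg/kg. Of the 11 with a value on all 5 arrays, 0 had both 200 mg/kg rats below every vehicle rat. In 1 both were above, as in 12.4% of all probe sets. That gene was Sycn (syncollin, of the zymogen granule), under the filter, with 5.31 and 5.01 at 200 mg/kg against 3.47, 2.28 and 4.00 in vehicle. Its values of 4.10 and 4.78 at 30 mg/kg and 4.67, 5.00 and 5.65 at 100 mg/kg were also above all vehicle rats. Ctrb1 (chymotrypsinogen B) had 2.54 and 4.14 at 200 mg/kg against 3.47, -3.07 and -5.12 in vehicle. Cpa1 (carboxypeptidase A1) was blank on all arrays, and Prss1 (trypsin) had 3.80 and 4.52 at 200 mg/kg against 4.62, 4.28 and 5.18 in vehicle. Of the 2 tested, Cela1 differed by 0.16 (SE 0.49, adjusted p = 0.912) and Spink1 by 0.17 (SE 0.31, adjusted p = 0.834). The part of acinar cells in the Reg values was not tested.

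Paneth cell markers gave no call in limma against vehicle at any dose over 6 tested genes, nor any unadjusted p of up to 0.05 (0 genes). At 200 mg/kg 4 of the 6 had a higher and 2 a lower mean, with a median of 0.19. The 4 were Mmp7, Pnliprp2, Guca2b (uroguanylin) and Nupr1, and neither Guca2b nor Nupr1 is specific to Paneth cells. Lyz2 is also on the macrophage list. All 8 with a probe set, of which Defa24, Lyz2 and Guca2b were the brightest, summed to 10598 to 11537 in the 200 mg/kg rats, against 11522 to 12622 in vehicle rats. Lyz2 (lysozyme) had 11.50 and 11.64 at 200 mg/kg against 11.78, 11.87 and 11.91 in vehicle (-0.29, SE 0.14, adjusted p = 0.440), the α-defensin Defa24 had 12.28 and 12.18 against 12.23, 12.63 and 12.41 (-0.20, SE 0.15, adjusted p = 0.595), and the stress gene Nupr1 had 7.205 and 7.04 against 6.90, 6.78 and 7.01 (0.23, SE 0.15, adjusted p = 0.533). Mmp7, the protease that activates α-defensins in the mouse, had 8.41 and 6.19 at 200 mg/kg against 7.18, 5.39 and 6.76 in vehicle, with overlapping rats (0.85, SE 0.68, adjusted p = 0.608).

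Goblet cell genes were higher in mean at 200 mg/kg in 11 of 11 tested members, 6 of them at an unadjusted p of up to 0.05 (12.4% of all probe sets, in either direction) and none after adjustment, with a median of 0.59. At 100 mg/kg 9 of 11 had a higher mean (median 0.35) and at 30 mg/kg 3 of 11 (median -0.55). Spink4, a goblet cell peptide, had 10.60 and 9.90 at 200 mg/kg against 7.60, 8.91 and 8.80 in vehicle (1.81, SE 0.45, adjusted p = 0.228). Its 30 mg/kg values of 8.24 and 7.39 and 100 mg/kg values of 8.81, 8.02 and 8.32 lay among those of vehicle rats or below them. The 200 mg/kg rats were thus above all others, as in 3.59% of all probe sets (627 of 17465). Spink4 was named for its small p at this dose, so its separation is given as a description. Spdef, the transcription factor of goblet cell maturation, had 7.73 and 7.51 at 200 mg/kg against 7.23, 7.12 and 7.07 in vehicle (0.48, SE 0.16, adjusted p = 0.299). Tff3 had 12.18 and 12.40 at 200 mg/kg against 11.84, 11.55 and 11.60 in vehicle (0.63, SE 0.22, adjusted p = 0.314). Zg16, a mucus lectin, had 11.81 and 12.16 at 200 mg/kg against 11.63, 11.08 and 11.11 in vehicle (0.71, SE 0.25, adjusted p = 0.318), and was called between 100 and 30 mg/kg (1.50, SE 0.25, adjusted p = 0.0479).

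Markers of other layers and cells differed in mean between doses as well, with no call against vehicle. All 13 smooth muscle genes had a lower mean at 200 mg/kg (median -0.64, 8 of them at an unadjusted p of up to 0.05, beside 12.4% of all probe sets) and at 100 mg/kg (median -0.95, all 13 of them, beside 18%). Lmod1, a regulator of muscle actin filaments, was called lower at 100 than at 30 mg/kg (-1.72, SE 0.28, adjusted p = 0.0435). The smooth muscle score of a rat, the mean of these genes less their vehicle means, was -0.52, 0.24 and 0.28 in vehicle rats, 0.41 and 0.08 at 30 mg/kg, -0.88, -0.90 and -0.90 at 100 mg/kg and -0.48 and -0.82 at 200 mg/kg. Reg3g was at 9.27 to 10.46 in the 100 mg/kg rats and at 12.51 and 12.87 in the 200 mg/kg rats. With the smooth muscle score as a covariate, the 200 mg/kg differences were 2.84 for Reg3g, 3.61 for Reg1a and 0.95 for Reg3b. The part of smooth muscle in the Reg values was not tested.

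The medians of all 5 immune cell lists were highest at 100 mg/kg. All 8 MHC class II genes had a higher mean there (median 0.88), against 3 of 8 at 200 mg/kg (median -0.14), and the 6 neutrophil and macrophage genes had medians of 0.75 and -0.24 at these doses. None of these genes passed against vehicle, but C1qa, C1qc, RT1-Da, RT1-Db1, RT1-DMb, Jchain, Mcpt1 and Mcpt9 were called higher between 100 and 30 mg/kg. Over all probe sets 0.305% were (54 of 17692). The macrophage, T cell, B cell, MHC class II and mast cell lists had 6, 7, 7, 8 and 4 tested genes. With the smooth muscle covariate or without the filter, 0 list genes were called between 100 and 30 mg/kg. Liver transcripts varied from rat to rat: albumin (Alb, 1367555_at) had 10.75 and 6.41 at 200 mg/kg against 11.43, 10.00 and 9.72 in vehicle. The 200 mg/kg rats thus differed by over 4 log2 units in Alb. Fabp6, the ileal bile acid binding protein, had 5.82 and 2.05 at 200 mg/kg against 7.89, 6.67 and 5.46 in vehicle. The part of these cell types in the Reg values was not tested.

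**Figure D4:**
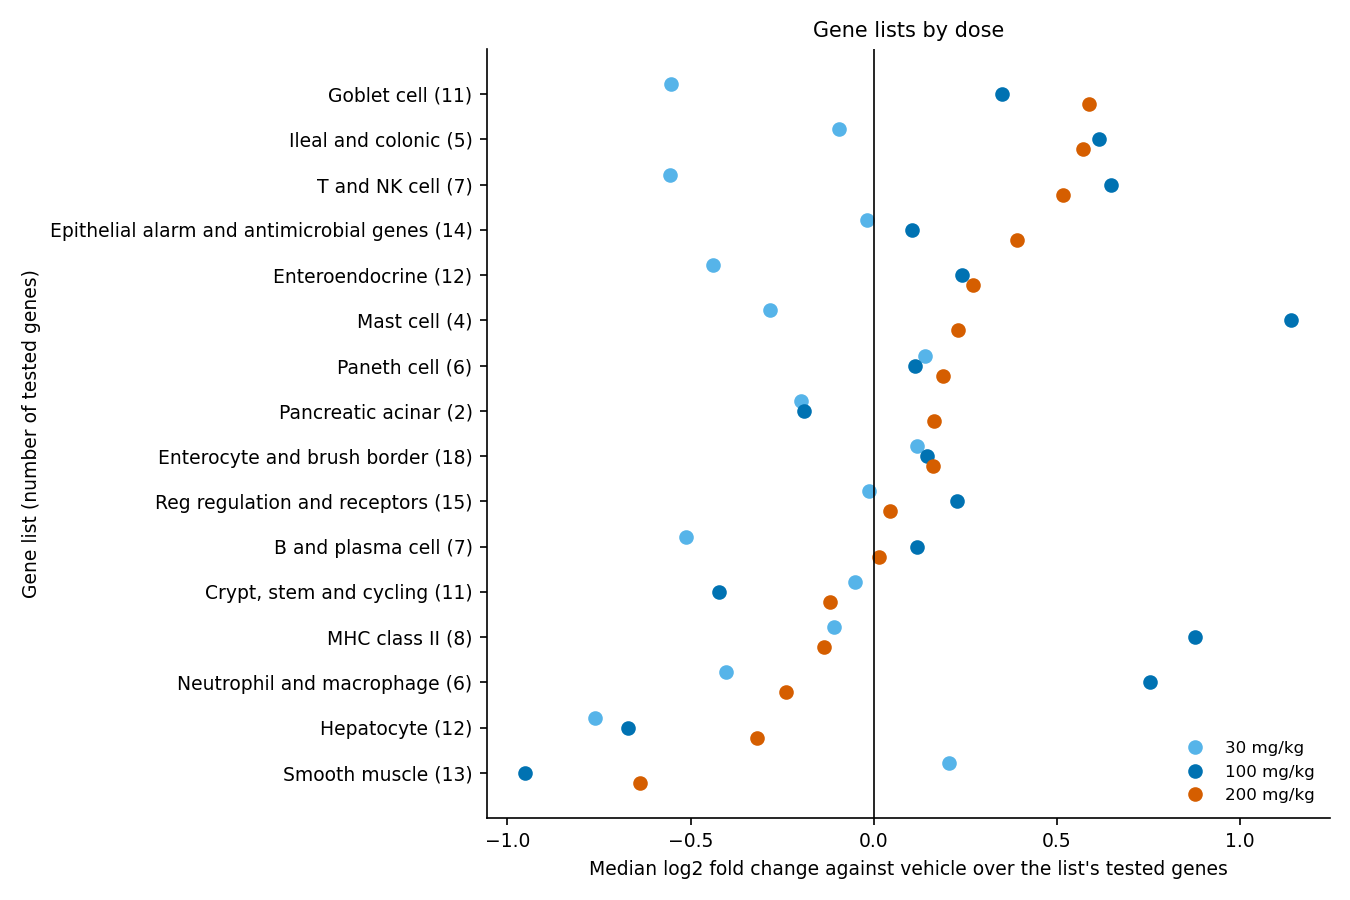
Median log2 fold change against vehicle (x axis) over the tested genes of each list (y axis, number of tested genes in brackets), at 30, 100 and 200 mg/kg/day. Goblet cell genes (0.59) and alarm genes (0.39) are higher at 200 mg/kg than at the lower doses, while MHC class II (0.88), mast cell (1.14) and macrophage genes (0.75) are highest at 100 mg/kg.

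The genes whose signal over the 10 arrays was most like the mean of Reg3b and Reg3g were ranked among 10105 genes. The 8 highest were Gnptg (r = 0.95), Acer3 (0.94), Slc30a2 (0.93), Ppp1r3f (0.93), Aldh4a1 (0.92), Stim2 (0.91), Zbtb7a (0.90) and Tmem33 (0.90). Their products include a subunit of the enzyme that tags lysosomal proteins (Gnptg), an alkaline ceramidase (Acer3), a zinc transporter (Slc30a2) and the mitochondrial enzyme of proline breakdown Aldh4a1. Aldh4a1 had 9.11 and 9.45 at 200 mg/kg against 8.41, 7.50 and 7.58 in vehicle, and 8.05 and 8.81 at 30 mg/kg, where rat 2 was again the higher. Slc30a2 had 6.86 and 6.57 at 200 mg/kg against 6.01, 5.72 and 5.64 in vehicle. For Reg1a the 3 highest were Gnptg (r = 0.94), the galactosyltransferase B3galt5 (0.94) and Erp44 (0.93), a chaperone of the secretory pathway.

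Likeness was lower without the 200 mg/kg rats. Over the other 8 arrays the r of the 8 genes with the Reg3 mean was 0.42 for Tmem33 and 0.73 to 0.87 for the rest, and none of the 8 was among the 8 highest when those arrays alone were ranked. Their log2 fold changes at 200 mg/kg were 0.38 to 1.45, below those of Reg3g (3.96) and, in all but Aldh4a1, of Reg3b (1.40).

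**Figure D5:**
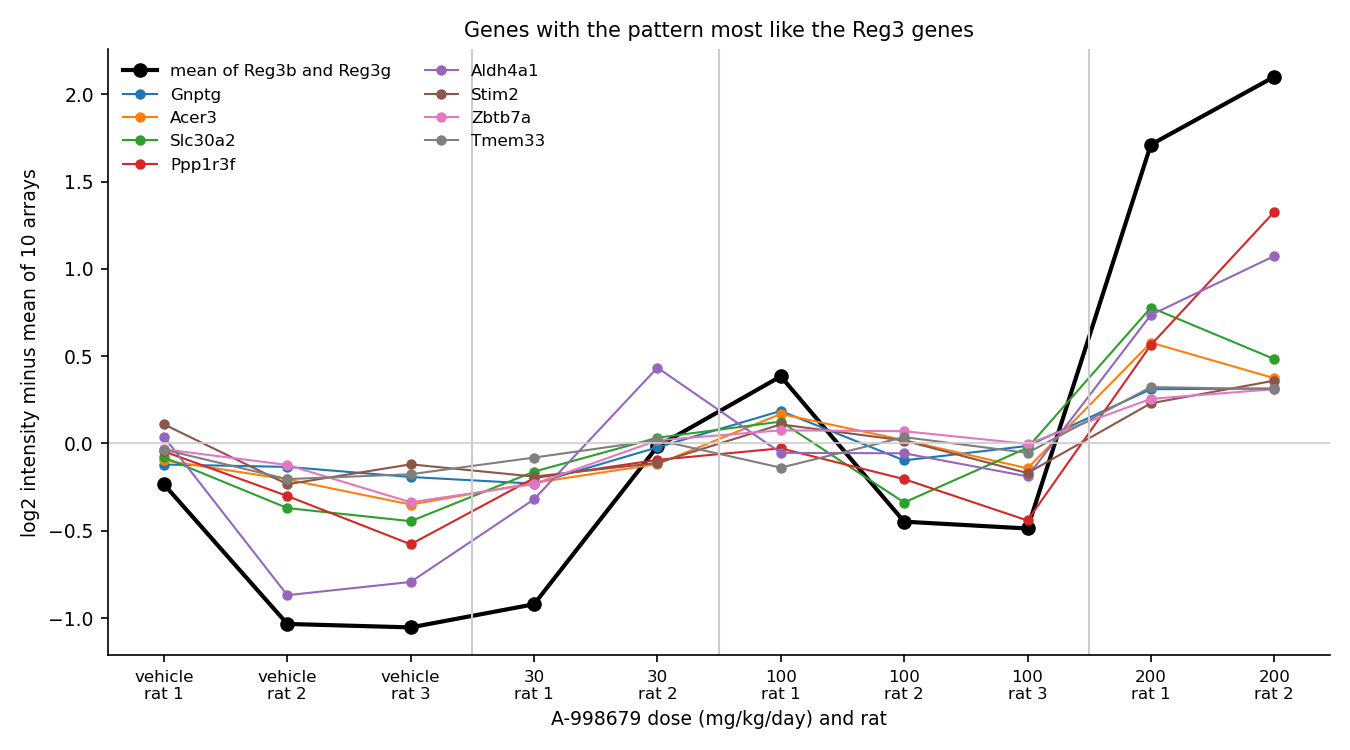
Log2 intensity minus the mean of the 10 arrays (y axis) for the mean of Reg3b and Reg3g (black) and for the 8 genes most like it, in each rat (x axis, by dose in mg/kg/day, with lines only to guide the eye). All are highest in the 200 mg/kg rats, and the black line also has higher points in vehicle rat 1, 30 mg/kg rat 2 and 100 mg/kg rat 1.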

How the data were processed

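RNA of whole jejunum from 10 rats was measured on 1-colour Affymetrix RAE230 arrays. The authors corrected background and scaled the arrays in Rosetta Resolver and deposited log10 intensities per probe set. How probes were summarised is not given in the sources used here. Values were multiplied to the log2 scale. Array medians lay between 5.86 and 5.90, and 11.0% to 11.3% of probe sets were blank per array. Blanks were left missing. A second deposited table holds only the authors' fold changes per rat and was not used.

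Gene symbols come from the annotation of the array (1 symbol for 19952 probe sets, several for 428, none for 9179). The 40% with the lowest mean were left out, and 17736 were tested with limma 3.58.1 in R 4.3.3 (1 mean per group, all 10 arrays, moderated spread, two-sided, Benjamini-Hochberg adjustment over all probe sets of a comparison, with a call at adjusted p ≤ 0.05). The script was tested on simulated data. Gene lists use the brightest probe set of a gene. A summed intensity adds linear values with blanks as nothing.

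The members and the 16 gene lists were chosen with earlier results of these data known. By rule the text could name all member probe sets, every called list gene, up to 3 genes per list with the smallest p at 200 mg/kg, and the genes most like Reg3 and Reg1a by Pearson r, though not every gene of the lists less close to Reg is described, and Fabp2, Vil1, Alb, Cpa1, Prss1, Sycn, Ctrb1, Mmp7 and the alarm genes that were dim were added after their values were seen. Rat numbers mark different animals and were not used to pair arrays. No batch was given. The p-values measure the spread between rats of this 1 study. Promoters were read from RefSeq (GRCr8) and aligned globally with Biopython 1.88, and plots were drawn with matplotlib 3.10.9 in Python 3.11.15. The alternatives covered the filter, scaling, blanks, array weights, the spread model, the samples fitted, a smooth muscle covariate, a rat number block, the methods' t-test and leaving out each rat.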

Additional observations from a re-analysis of the deposited data

How the results depend on the processing

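With 2 or 3 rats per group, calls against vehicle were few and moved with the setting. The Reg genes were chosen for their values at 200 mg/kg, so the ranges at that dose are a description. Leaving out single rats gave 3.76 to 4.35 for Reg3g, 3.17 to 3.49 for Reg1a and 1.19 to 1.61 for Reg3b at that dose, 0.54 to 1.33, 0.63 to 1.25 and 0.07 to 0.39 at 100 mg/kg, -0.25 to 1.17, -0.032 to 0.18 and -0.043 to 0.34 at 30 mg/kg, and -0.24 to 1.19, 0.56 to 1.18 and -0.10 to 0.29 between 100 and 30 mg/kg. Only array weights made members pass at 100 mg/kg (Reg1a 0.96, Reg3g 1.29), and their estimation did not converge. The smooth muscle covariate, which differs between the groups, gave -0.60 for Reg3g and -0.38 for Reg3b at 100 mg/kg, -1.48 and -0.70 between 100 and 30 mg/kg, -0.040 for Reg1a at 30 mg/kg, and 2.84 (Reg3g) and 0.95 (Reg3b) at 200 mg/kg. The cause was not tested.

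The number of called probe sets (2 for 30 mg/kg, 2 for 100 mg/kg, 99 for 100 over 30 mg/kg and 4 for 200 mg/kg, in that order below) was 0, 0, 13 and 1 without the filter, 4, 6967, 930 and 558 with array weights, 0 throughout once smooth muscle was a covariate, and 619, 2360, 4018 and 1140 by the methods' t-test before and 0 in all after Benjamini-Hochberg adjustment. With only the arrays compared it was 1, 0, 1252 and 1. With the lowest 60% left out the first was 0, the second 1 and the last 1. With blanks at the floor or log2(intensity + 16) 0 passed at 30 mg/kg, and log2(intensity + 16) gave 8 at 200 mg/kg. A mean-variance trend gave 0 at 30 mg/kg and 183 between 100 and 30 mg/kg, and quantile normalization 2 at 200 mg/kg. Leaving out single rats gave 0 to 2, 0 to 2204, 0 to 1015 and 0 to 401, the highest without vehicle rat 1 in the last 3. Of list genes, 0, 0, 11 and 0 were called, array weights gave 78, 40 and 16 for the last 3, 7, 42, 53 and 10 by the unadjusted and 0 between 100 and 30 mg/kg by the adjusted t-test. The count between 100 and 30 mg/kg was also 0 without the filter or with the covariate, 19 with the trend and 36 with only those arrays, and leaving out single rats gave 0, 0 to 41, 0 to 37 and 0 to 12.

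Rat numbers did not pair the arrays: same-numbered rats had a mean r of deviations of -0.016 (-0.31 to 0.24 over 13 pairs). With rat number as a replicate block the called probe sets were 1, 1, 18 and 0, the called list genes 1 at 30 mg/kg and 3 between 100 and 30 mg/kg, and Reg3g at 200 mg/kg 3.76.

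Of the other named genes (63, with 1435 values), 1369 values kept direction and side of the threshold. At 200 mg/kg the covariate turned Cpa3 (0.20), Defa24 (0.035), Enpep (-0.060), Fga (-0.46), Gcg (-0.15), Mcpt9 (-0.45), Ms4a2 (-0.23), Scg2 (0.26), Slc15a1 (-0.17), Smoc2 (0.38), Spink1 (-0.19) and Top2a (0.14), the block Cpa3 (0.035) and array weights Cela1 (-0.11). Leaving out single rats gave -0.052 to 0.20 for C1qa, -0.30 to 0.51 for Cela1, -0.35 to 0.037 for Cpa3, -0.15 to 0.90 for Mcpt1 and -0.30 to 0.65 for Spink1. None of the 8 genes most like Reg3 stayed among the 8 without the 200 mg/kg arrays (0).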

Other observations

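Enteroendocrine genes, of hormone cells scattered in the gut epithelium, had a higher mean at 200 mg/kg than in vehicle in 8 of 12 tested members and a lower mean in 4 (median log2 fold change 0.27). None passed in limma, and 2 were higher and 0 lower at an unadjusted p of up to 0.05, beside 12.4% of all probe sets. Of the 11 with a value on all 5 arrays, 4 had both 200 mg/kg rats above every vehicle rat (Sct, Chgb, Sst and Neurod1), as did 12.4% of probe sets. Sct, the hormone secretin, had 7.18 and 6.91 at 200 mg/kg against 6.32, 6.14 and 5.96 in vehicle (0.91, SE 0.28, adjusted p = 0.285). Scg2, a granin, was among the 4 with a lower mean, with 7.55 and 6.87 at 200 mg/kg against 7.21, 8.02 and 8.13 in vehicle and overlapping rats. Gcg, which encodes glucagon-like peptides, was called between 100 and 30 mg/kg, with 7.29, 7.18 and 7.52 at 100 mg/kg against 3.43 and 3.33 at 30 mg/kg (3.95, SE 0.53, adjusted p = 0.0341).

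Of 5 tested ileal and colonic genes, 4 had a higher and 1 a lower mean at 200 mg/kg. Among them Car4 alone had both 200 mg/kg rats above every vehicle rat, as did 12.4% of all probe sets. Car4, a carbonic anhydrase of the brush border that is abundant in colon, had 7.79, 7.47 and 7.38 in vehicle rats, 7.62 and 7.81 at 30 mg/kg, 7.91, 8.27 and 8.30 at 100 mg/kg and 8.46 and 9.03 at 200 mg/kg. Its log2 fold change was 1.20 at 200 mg/kg (SE 0.22, adjusted p = 0.162 by limma) and 0.61 at 100 mg/kg (SE 0.20, adjusted p = 0.209). It passed at 200 mg/kg without vehicle rat 1 (1.32, adjusted p = 0.0410 by limma), in a fit that called 401 probe sets, against 4 with all rats. A second, dimmer Car4 probe set had overlapping rats.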
